A study of Mus musculus with 12 samples.

Results

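The T cell receptor complex and its coreceptors were followed as 10 genes, taken by gene name from the 47643 genes of the count and TPM tables. They were the CD3 subunit genes Cd3e, Cd3d, Cd3g and Cd247, the receptor constant genes Trac, Trbc1 and Trbc2, and the coreceptor genes Cd8a, Cd8b1 and Cd4. The libraries came from tumors that KPC4662, a cell line of mouse pancreatic ductal adenocarcinoma, had formed, and were made by bulk poly(A) RNA sequencing of tumor pieces. The 6 Young tumor and 6 Old tumor libraries are named for the age of the mouse, and the ages, strain, sex, genotype and implantation route of the mice are absent from the labels used here. All tumors therefore share 1 cancer cell line, and both age groups are described by the same label of pancreatic tumor tissue. No label says that the pieces came from separate mice, so the p-values measure the spread between pieces, which may be technical in part.

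An alpha beta T cell recognises a peptide held by an MHC molecule through a receptor built of an alpha and a beta chain. These chains have almost no part inside the cell, and the signal is passed on by the CD3 epsilon, delta and gamma chains and by the zeta chain encoded by Cd247. CD8, a pair of chains encoded by Cd8a and Cd8b1, binds MHC class I and marks cytotoxic T cells, while CD4 binds MHC class II and marks helper and regulatory T cells.

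The label of cell type on these samples is epithelial, and epithelial markers were abundant. The keratin gene Krt8 lay between 1290 and 2680 CPM (counts scaled to a common library size by the TMM method) in all 12 libraries. The pan-leukocyte gene Ptprc, which encodes CD45, ranged from 34.1 to 75.0 CPM, and the 10 receptor and coreceptor genes together added up to 13.8 to 54.9 CPM. Library totals ran from 17.75 to 24.1M expected counts. Old tumor 1 lay far from the other libraries on the first principal component of all genes, Old tumor 5 on the second and Young tumor 2 on the third. The second component also separated the ages, at 9 to 31.8 in young and -43.9 to -5.5 in old libraries.

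The 10 genes were low but measured in every library. They passed the filter on low counts in 10 of 10 cases. The fewest counts were the 3.05 of Cd8b1 in Old tumor 2, and the largest value was the 221 of Cd8a in Young tumor 6. On the TPM scale, which divides by transcript length and lets genes be compared, the mean level over 12 libraries was 15.6 TPM for Trbc1, 11.0 for Trbc2, 8.28 for Cd3g and 6.91 for Trac. A second tier followed with Cd8a at 2.73 TPM, Cd3e at 2.55, Cd3d at 2.31, Cd4 at 2.28, Cd247 at 1.62 and Cd8b1 at 1.39. The only step between neighbours in this order that exceeded their spread was that from Trac to Cd8a, where Cd8a was the lower in 12 of 12 libraries. No other step did.

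Between the ages, the genes for this complex were at lower mean levels in the old tumors, but none of the differences passed the test over all genes. edgeR's quasi-likelihood test with Benjamini-Hochberg adjustment over 16013 genes called 0 of the 10 at an adjusted p under 0.05, where 2.26% of all tested genes were called and 1.47% were called lower. The log2 fold change of old over young was below 0 for 10 of 10, against 45.8% of all tested genes, and its median was -0.89, against 0.03 for all. An unadjusted edgeR p under 0.05 was reached by 5 of 10, namely Cd3e, Cd3d, Cd3g, Cd8a and Cd4, against 21.1% of all genes in either direction and 10.4% in the lower one. The old and young libraries overlapped for every one of the 10, while 1.97% of all genes were lower in old without overlap. For 7 of 10, at least 5 of 6 old libraries lay below the young median, against 25.7% of all genes. The 10 genes are read from the same libraries, so these counts are not 10 separate observations. In bulk RNA, fewer T cells in a piece and less of these transcripts in each T cell cannot be told apart.

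The outcome of the test depended on 1 library and on the tool. Without Old tumor 1, edgeR called 3 of the 10 lower in old (Cd3d, Cd4 and Cd8a) and 6.86% of all genes. Without both Old tumor 1 and Old tumor 5 it called 1, Cd8a, and 4.55% of all genes. DESeq2 called Cd4 and Cd8a and 8.9% of all genes, and limma-voom with quality weights called Cd8a and 6.1% of all genes. In the other direction, edgeR called 0 of the 10 and 0.254% of all genes without Old tumor 4, and 0 of the 10 and 0.695% of all genes with a correction for exon length.

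**Figure D1:**
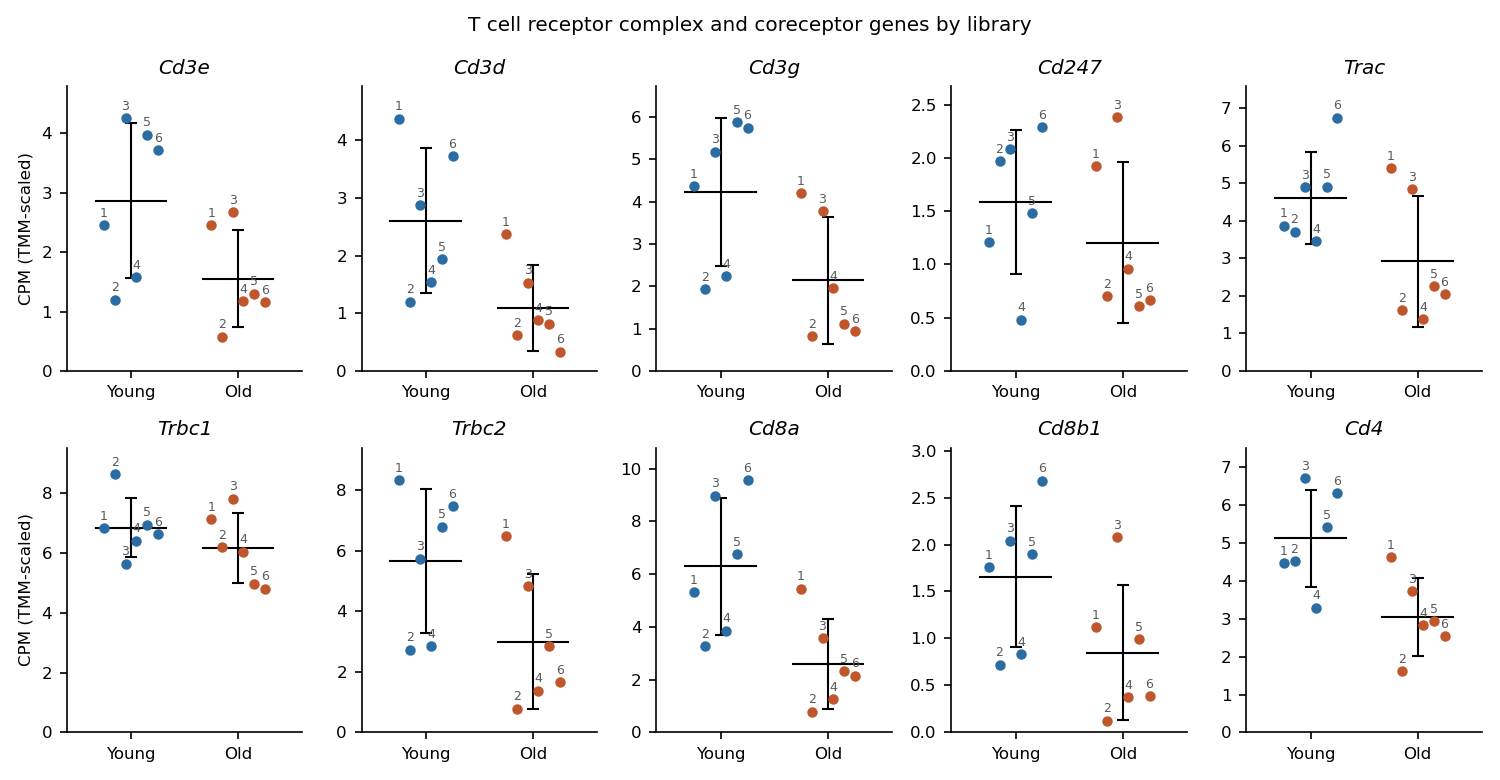
CPM of each of the 10 genes in the 6 Young tumor (blue) and 6 Old tumor (orange) libraries. Points are libraries with their replicate number, the horizontal line is the mean and the bar is 1 SD. Old tumors 1 and 3 are the 2 highest old libraries in 10 of 10 panels, and Trbc1 has the smallest spread relative to its mean (coefficient of variation 16.8%).

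The same libraries were high or low for most of the genes. Old tumor 1 and Old tumor 3 were the 2 highest old libraries for 10 of 10 genes, and in each of them 4 of 10 genes lay above the young median. In Old tumors 2, 4, 5 and 6, 0 of 10 genes did. Young libraries differed among themselves too. Young tumor 6 had 9 of 10 genes above the young median and Young tumors 3 and 5 had 8, while Young tumor 1 had 3, Young tumor 2 had 2 and Young tumor 4 had 0. Old tumor 1 also had the highest Ptprc level of all libraries, at 75.0 CPM, and the highest summed level of 7 B cell markers, at 15.9 CPM against 1.27 to 4.42 CPM in the others. Ptprc in Old tumor 3, at 49.1 CPM, and in Young tumor 5, at 36.4 CPM, lay within the range of the remaining libraries. The part of B cell or total leukocyte content in these levels was not tested.

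The CD3 subunits were the first group examined. Cd3e, Cd3d and Cd3g lie side by side on chromosome 9 in a span of 40056 bp, and the start sites of Cd3g and Cd3d, which are read in opposite directions, are 1355 bp apart. Cd247 stands alone on chromosome 1 (chr1:165788681-165877277, GRCm38). The likeness of the 3 clustered genes over the libraries was not particular to the cluster. Pearson's r with Cd3e on log2 CPM was 0.94 for Cd3g and 0.80 for Cd3d, against 0.94 for Cd8b1 and 0.93 for Cd8a on chromosome 6. The 250 bases before the start of the 3 clustered genes are shown (RefSeq, GRCm38.p6, each 5′ to 3′ on its gene's strand, with CANNTG in capitals). This palindromic motif is the E-box bound by basic helix-loop-helix factors such as those of T cell development.
Cd3g, chr9:44980432-44980681, minus strand: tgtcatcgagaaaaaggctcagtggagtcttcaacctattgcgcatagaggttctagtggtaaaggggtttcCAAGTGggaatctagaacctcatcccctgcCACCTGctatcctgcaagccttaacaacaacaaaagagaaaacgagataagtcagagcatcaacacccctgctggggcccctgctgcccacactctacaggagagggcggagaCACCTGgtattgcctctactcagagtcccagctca
Cd3d, chr9:44981536-44981785, plus strand: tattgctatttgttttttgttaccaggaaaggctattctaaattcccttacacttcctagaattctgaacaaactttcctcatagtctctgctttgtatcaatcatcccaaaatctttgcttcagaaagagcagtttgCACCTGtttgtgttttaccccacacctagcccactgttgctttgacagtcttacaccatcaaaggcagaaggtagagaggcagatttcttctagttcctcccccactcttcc
Cd3e, chr9:45009612-45009861, minus strand: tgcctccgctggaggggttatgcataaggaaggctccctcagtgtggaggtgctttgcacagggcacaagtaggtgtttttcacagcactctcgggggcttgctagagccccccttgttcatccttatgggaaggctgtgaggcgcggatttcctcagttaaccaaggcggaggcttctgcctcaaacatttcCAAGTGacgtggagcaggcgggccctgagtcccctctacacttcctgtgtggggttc
The Cd3g stretch held 3 matches, and those of Cd3d and Cd3e held 1 each. A match to CANNTG was present in 66.2% of 32851 RefSeq gene starts scanned over the same length, and at least 3 matches in 12.2%. The ETS core GGAA, sought on both strands, had 6 matches before Cd3d, 5 before Cd3e and 2 before Cd3g, and was present before 93.4% of all starts. The RUNX core TGTGGT, sought on both strands, had 0 matches in these stretches and was present in 14.0% of all. These matches describe letters only.

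Cd3e encodes the epsilon chain, which pairs with both the delta and the gamma chain. Its level was 1.2 CPM in the lowest, 3.09 in the median and 4.26 in the highest young library, and 0.578, 1.23 and 2.67 CPM in the old ones. Young tumors 3, 5 and 6 lay above every old library, while Young tumors 2 and 4 lay below Old tumors 1 and 3. On the log2 scale old over young was -0.88, with an SE of 0.40 (edgeR adjusted p = 0.223) and a 95% interval of -1.73 to -0.02.

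Cd3d, the delta chain gene, had the largest estimated difference of the CD3 subunits. It ranged from 1.2 through a median of 2.41 to 4.37 CPM in young tumors and from 0.331 through 0.848 to 2.37 CPM in old ones. Each of the 6 old libraries had less than the young median, 4 of them less than any young library, and Old tumors 1 and 3 lay within the young range. The fold change was -1.24 on the log2 scale, with an SE of 0.44 and an edgeR adjusted p of 0.132. Without Old tumor 1 it was -1.64, with an edgeR adjusted p of 0.0359.

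Cd3g, the gamma chain gene, was the most abundant CD3 subunit per length. Young libraries held 1.93 to 5.88 CPM with a median of 4.77, and old ones 0.825 to 4.2 CPM with a median of 1.54. Young tumors 1, 3, 5 and 6 were above every old library, and Young tumors 2 and 4 lay among the old ones. Old over young, the log2 difference was -0.98 with an SE of 0.44 (edgeR adjusted p = 0.222).

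Cd247 encodes the zeta chain, which carries most of the phosphorylation motifs of the complex and also serves Fc receptors of natural killer cells. Its estimated difference between the ages was the smallest among the subunits. The young libraries ran from 0.482 through a median of 1.73 to 2.29 CPM, and the old ones from 0.605 through 0.83 to 2.38 CPM. The lowest of all 12 values was in Young tumor 4 and the highest in Old tumor 3, so that each group covered nearly the range of the other. Its log2 fold change of -0.39 had an SE of 0.43 (edgeR adjusted p = 0.63), and the 95% interval of -1.31 to 0.52 covers both no difference and the values of the other subunits. Single libraries moved it from -0.25 (without Young tumor 6 or without Old tumor 5) to -0.69 (without Old tumor 3). The log2 ratio of Cd247 to Cd3e within a library was 0.44 higher in old tumors, with an adjusted p of 0.38 by a two-sided exact permutation test. Leaving out Young tumor 2 raised that difference to 0.74, with an adjusted exact permutation p of 0.0476.

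**Figure D2:**
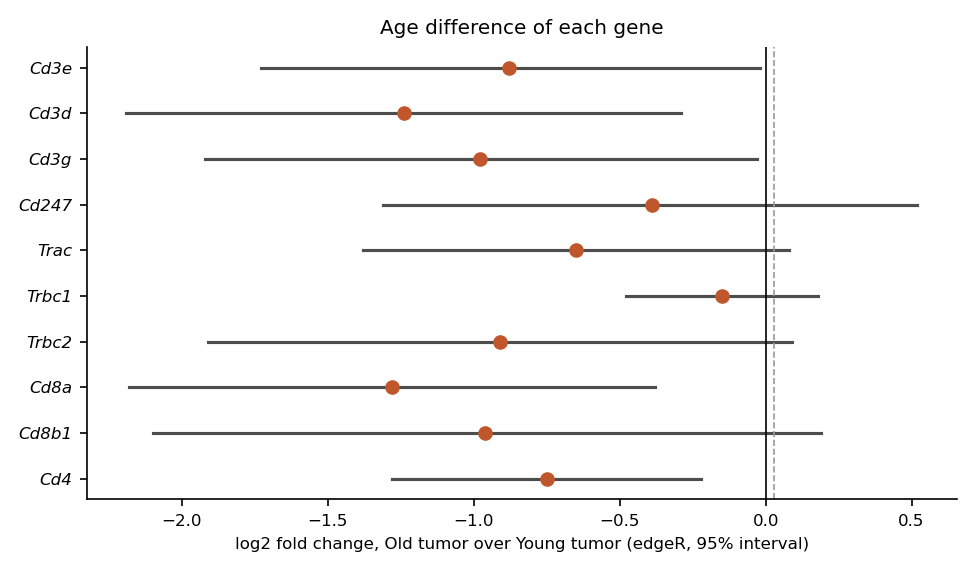
Log2 fold change of Old tumor over Young tumor for each gene (point) with its 95% interval (line) from the edgeR fit over all genes; n = 6 libraries per age. The solid vertical line is 0 and the dashed one the median of all tested genes, 0.03. All 10 points lie below 0, and 5 of the intervals include 0.

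The receptor constant genes encode the part of each chain that does not vary between T cells, so their reads can come from T cells of any specificity. Trac (chr14:54220521-54224206, plus strand) is the single constant gene of the alpha chain. It ranged from 3.46 through a median of 4.38 to 6.75 CPM in young tumors and from 1.38 through 2.14 to 5.41 CPM in old tumors. Old tumors 2, 4, 5 and 6 lay below every young library, at 1.38 to 2.25 CPM, while Old tumor 1 exceeded 5 young libraries and Old tumor 3 exceeded 3. This came to -0.65 on the log2 scale (SE 0.34), with an edgeR adjusted p of 0.288.

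The beta chain has a pair of constant genes, Trbc1 (chr6:41538218-41539881) and Trbc2 (chr6:41546730-41548352), both on the plus strand with 6849 bp between them. A T cell uses one or the other, and the proteins are nearly the same. In the GRCm38 sequence of the GENCODE transcripts, their coding parts are 518 bases long and differ at 23 positions, an identity of 95.6%. Of these, 22 positions lie in the 143 coding bases of exons 2 to 4, and 1 lies in the 375 coding bases of exon 1. The transcripts run on after the coding part, for 219 bases in Trbc1 and 174 in Trbc2, and these ends were not compared. The coding stretches that tell the genes apart are printed because the deposited values depend on them in part. First comes the coding part of exons 2 to 4, spliced, with the differing bases in capitals.
Trbc1, within chr6:41539114-41539662: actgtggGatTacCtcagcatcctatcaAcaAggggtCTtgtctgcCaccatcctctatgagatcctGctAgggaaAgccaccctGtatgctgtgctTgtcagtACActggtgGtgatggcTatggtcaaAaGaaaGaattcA
Trbc2, within chr6:41547610-41548178: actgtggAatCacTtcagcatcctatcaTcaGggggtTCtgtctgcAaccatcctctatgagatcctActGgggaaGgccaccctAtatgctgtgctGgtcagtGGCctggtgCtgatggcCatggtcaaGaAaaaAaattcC
The exon 1 difference is C260A, with positions counted from the first coding base of the constant exon and the Trbc1 base first. It is shown in capitals within the 61 bases around it.
Trbc1, chr6:41538447-41538507: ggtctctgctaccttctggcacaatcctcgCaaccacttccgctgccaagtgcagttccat
Trbc2, chr6:41546959-41547019: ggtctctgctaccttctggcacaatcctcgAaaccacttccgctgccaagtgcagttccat
The longest run of coding bases shared by both genes is 259 bases. A read from such a run carries nothing that assigns it to one gene.

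The deposited expected counts showed this sharing directly. The count of Trbc1 was fractional in all 12 libraries, whereas the sum of Trbc1 and Trbc2 was a whole number in 12 of 12, within a tolerance of 0.015. The quantification software had thus split a whole number of reads between the pair, and the value of each gene is an estimate that is uncertain beyond its counting error.

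Trbc1 was the steadiest of the 10 genes. It lay at 5.64, 6.72 and 8.62 CPM in the lowest, median and highest young library and at 4.8, 6.12 and 7.81 CPM in the old ones. Its coefficient of variation over the 12 libraries was 16.8%, of which counting alone would give 8.31%, against 37.9% to 68.4% for the other 9 genes. Old over young was -0.15 on the log2 scale, with an SE of 0.15 (edgeR adjusted p = 0.603) and a 95% interval of -0.48 to 0.18.

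Trbc2 followed the CD3 genes instead. Young libraries ran from 2.74 through a median of 6.27 to 8.34 CPM and old ones from 0.784 through 2.25 to 6.49 CPM. Old tumors 2, 4 and 6 lay below every young library, and Old tumor 1 was above the young median. The difference was -0.91 on the log2 scale (SE 0.47), with an edgeR adjusted p of 0.28.

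Trbc1 accordingly made up a different share of the pair from library to library. It took 45.0% to 75.8% of the pair's counts in young tumors, with a median of 50.1%, and 52.3% to 88.5% in old tumors, with a median of 69.1%. The high shares stood in the libraries with few Trbc2 counts, such as Old tumor 2 with 149.6 counts for Trbc1 and 19.4 for Trbc2, and Young tumor 2 with 178.81 and 57.19. The log2 ratio of Trbc1 to Trbc2 was 0.95 higher in old tumors, which did not pass (adjusted p = 0.17, two-sided exact permutation test over 10 ratios). The sum of the pair was 9.25, 12.6 and 15.2 CPM in young tumors and 6.46, 7.62 and 13.6 CPM in old tumors (lowest, median, highest). Tested as 1 feature, a choice made after the values were seen, the pair differed by -0.45 (log2, SE 0.20), with an edgeR adjusted p of 0.227.

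**Figure D3:**
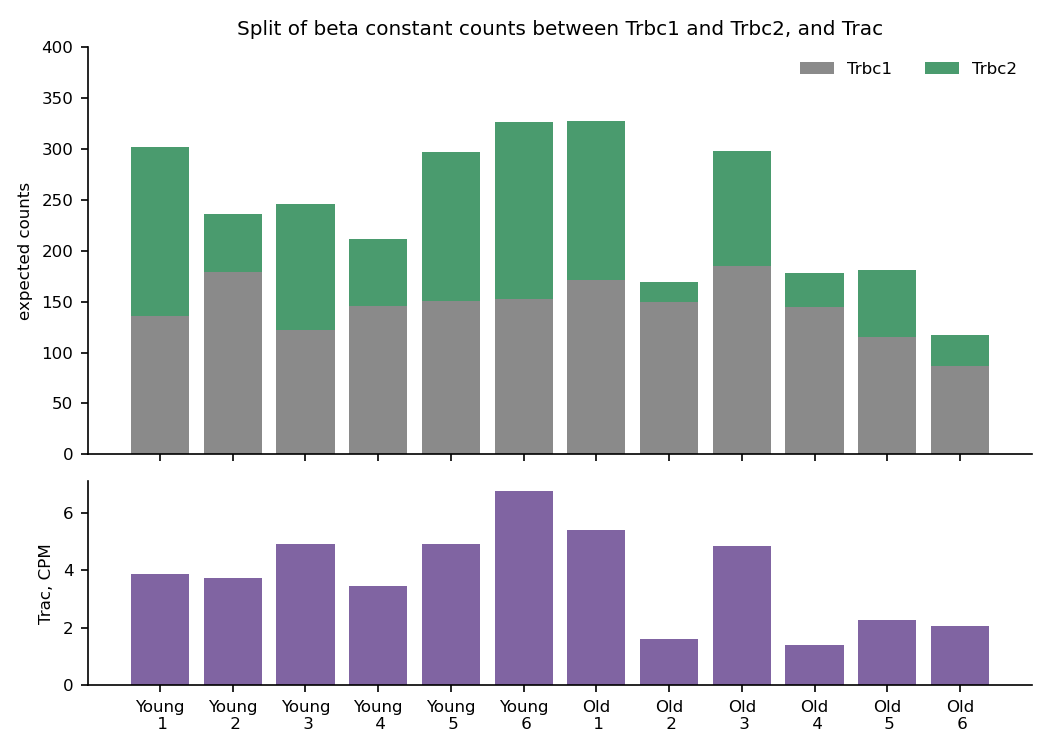
Expected counts assigned to Trbc1 (grey) and Trbc2 (green), stacked, in each library (upper bars), above the CPM of Trac (lower bars). The grey part stays between 87.07 and 184.5 counts, while the green part runs from 19.4 to 173.4.

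Reads of variable segments were too few to add to this. The 22 Trbv genes of the table had 8 to 53 counts in all per library, with medians of 40.5 in young and 17 in old tumors, and the 108 Trav genes had 3 to 24, with medians of 14 and 8. None of the variable genes passed the filter, and the Trbj and Traj segments were at 0 in every library.

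Among the 10 genes, the coreceptor genes Cd8a and Cd4 had the smallest edgeR p-values between the ages. The fold change of Cd8a was close to that of Cd3d, and their order turned when single libraries were left out. Cd8a (chr6:71373427-71379173) and Cd8b1 (chr6:71322788-71337494) are neighbours on chromosome 6, with 35933 bp between them, and Cd4 (chr6:124864692-124888221, minus strand) lies farther along the same chromosome. Cd8a held 3.27 CPM in the lowest, 6.04 in the median and 9.56 in the highest young library, and 0.784, 2.24 and 5.45 CPM in the old ones. Of the 6 old libraries, 4 were below every young one and none reached the young median, while Old tumors 1 and 3 lay within the young range. The mean was 2.43 times as high in young tumors, or a log2 fold change of -1.28 with an SE of 0.42 and a 95% interval of -2.18 to -0.38 (edgeR adjusted p = 0.105). Cd8a was called lower by DESeq2 (adjusted p = 0.0261), by limma-voom (adjusted p = 0.0373) and, without Old tumor 1, by edgeR (adjusted p = 0.0275).

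Cd8b1, whose chain is found with CD8 alpha on conventional cytotoxic T cells, was the least abundant of the 10 per length. The young libraries lay at 0.722, 1.83 and 2.68 CPM and the old ones at 0.124, 0.69 and 2.08 CPM (lowest, median, highest). Old tumor 3 exceeded 5 young libraries, and Old tumors 2, 4 and 6 lay below all of them. The log2 fold change of -0.96 had the widest error of the group (SE 0.53, edgeR adjusted p = 0.323), and it was -1.45 without Old tumor 3. Its mean count was 27.8 per library, at which counting alone gives a coefficient of variation of 19.0%.

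Cd4, which macrophages and some dendritic cells can also express, varied less. It ran from 3.29 through a median of 4.97 to 6.71 CPM in young tumors and from 1.61 through 2.89 to 4.62 CPM in old tumors. Young tumors 3, 5 and 6 were above every old library, and Old tumors 2, 4, 5 and 6 were below every young one. Old over young was -0.75 on the log2 scale, with an SE of 0.25 and a 95% interval of -1.28 to -0.22 (edgeR adjusted p = 0.108). DESeq2 called it (adjusted p = 0.0384), as did edgeR without Old tumor 1 (log2 fold change -0.92, adjusted p = 0.0384). On the TPM scale the difference was smaller, with means of 2.56 ± 0.709 TPM in young and 2.0 ± 0.688 TPM in old tumors (SD, n = 6 each).

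The balance of CD8 to CD4 was taken as the log2 ratio of Cd8a to Cd4 CPM within each library, with a prior count of 2. The prior count pulls a ratio toward 0, most at low counts. Library scaling enters the ratio only through this prior count. The ratio was above 0, meaning more counts for Cd8a than for Cd4, in 5 of 6 young and 1 of 6 old libraries. It was 0.25 in Young tumor 1, -0.46 in Young tumor 2, 0.42 in Young tumor 3, 0.22 in Young tumor 4, 0.31 in Young tumor 5 and 0.59 in Young tumor 6. In old tumors it was 0.23 in Old tumor 1, -0.96 in Old tumor 2, -0.07 in Old tumor 3, -1.13 in Old tumor 4, -0.32 in Old tumor 5 and -0.23 in Old tumor 6. Each old library had a ratio under the young median of 0.28, and Young tumor 2 fell within the old range. The old mean was lower by 0.63 (SE 0.26), with a two-sided exact permutation p of 0.039 that rose to 0.0974 after adjustment over the 10 ratios tested. The difference passed the adjusted threshold without Young tumor 2 (-0.77, adjusted exact permutation p = 0.0433) or without Old tumor 1 (-0.76, adjusted exact permutation p = 0.0379), and was smallest without Old tumor 4, at -0.49.

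Cd8b1 did not give a clear answer on the same balance. Its log2 ratio to Cd4 was -1.67 ± 0.48 in the young and -2.06 ± 0.81 in the old libraries (SD, n = 6 each), a difference of -0.39 (adjusted p = 0.409, exact permutation test) that was -0.20 without Old tumor 2 and -0.64 without Old tumor 3. It also depended on the prior count, at -0.51 with a prior count of 0.5 (adjusted exact permutation p = 0.344). With TPM in place of CPM it was -0.66 (adjusted exact permutation p = 0.139). Within CD8, the log2 ratio of Cd8b1 to Cd8a was -1.90 ± 0.22 in the young and -1.65 ± 0.61 in the old libraries (SD, n = 6 each), a difference of 0.25 (adjusted p = 0.428, exact permutation test) that was 0.07 without Old tumor 3 and 0.15 without Old tumor 5. With the prior count of 2, the old libraries spread to both sides of the young ones, from -2.24 to -0.75. The prior count pulls the lowest of these ratios toward 0, as in Old tumor 2, with 3.05 counts for Cd8b1 and 19 for Cd8a. With a prior count of 0.5 the age difference was 0.15 (adjusted exact permutation p = 0.645).

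Cd8a was next set against Cd3e and against the pan-leukocyte gene Ptprc. The log2 ratio of Cd8a to Cd3e was 1.14 ± 0.23 in the young and 0.61 ± 0.38 in the old libraries (SD, n = 6 each; exact permutation p = 0.0216, adjusted 0.0722), and it passed only without Old tumor 1 or without both Old tumor 1 and Old tumor 5 (adjusted exact permutation p = 0.0379 and 0.0476). For Cd4 to Cd3e the difference was 0.10 (SE 0.24, adjusted exact permutation p = 0.693).

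Ratios to Ptprc were the only ones to pass. The log2 ratio of Cd8a to Ptprc was -3.72 to -2.41 in young and -5.63 to -3.75 in old tumors, so the groups did not overlap, although Young tumor 2 at -3.72 and Old tumor 3 at -3.75 nearly met. The difference of -1.33 (SE 0.36) had an exact permutation p of 0.00216, the smallest that 12 libraries allow, and an adjusted p of 0.0216. This call was lost without Young tumor 3, 4, 5 or 6 (differences of -1.36 to -1.20, adjusted exact permutation p = 0.0505 to 0.0649) and with TPM in place of CPM (-1.32, adjusted exact permutation p = 0.0722). Without Young tumor 3, 4, 5 or 6 the groups still did not overlap. The exact permutation p before adjustment was then 0.00649 to 0.00866. The log2 ratio of Cd4 to Ptprc was -3.30 ± 0.34 in the young and -3.99 ± 0.39 in the old libraries (SD, n = 6 each), a difference of -0.69 (SE 0.21, adjusted exact permutation p = 0.0433). It was lost without Young tumor 3, 4, 5 or 6 or Old tumor 2, 5 or 6 (differences of -0.73 to -0.56, adjusted exact permutation p = 0.0505 to 0.0866), without both Old tumor 1 and Old tumor 5 (0.0595), and with TPM (-0.45, adjusted exact permutation p = 0.139). The ratio of Cd3e to Ptprc differed by -0.79 (SE 0.37, adjusted exact permutation p = 0.113) and passed without Young tumor 2 (-0.97, adjusted exact permutation p = 0.0476). For Ptprc itself, old over young was -0.07 (log2, SE 0.20), and the edgeR adjusted p was 0.875. Ptprc was 1 of 4 listed leukocyte markers, of which edgeR called 0, against 2.26% of all tested genes. All 4 had a log2 fold change below 0, against 45.8% of all tested genes, with a median of -0.21. Coro1a stood at -0.44 (SE 0.23), Cd52 at -0.36 (SE 0.22) and Laptm5 at -0.03 (SE 0.22). Ratios to these other markers were not tested.

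**Figure D4:**
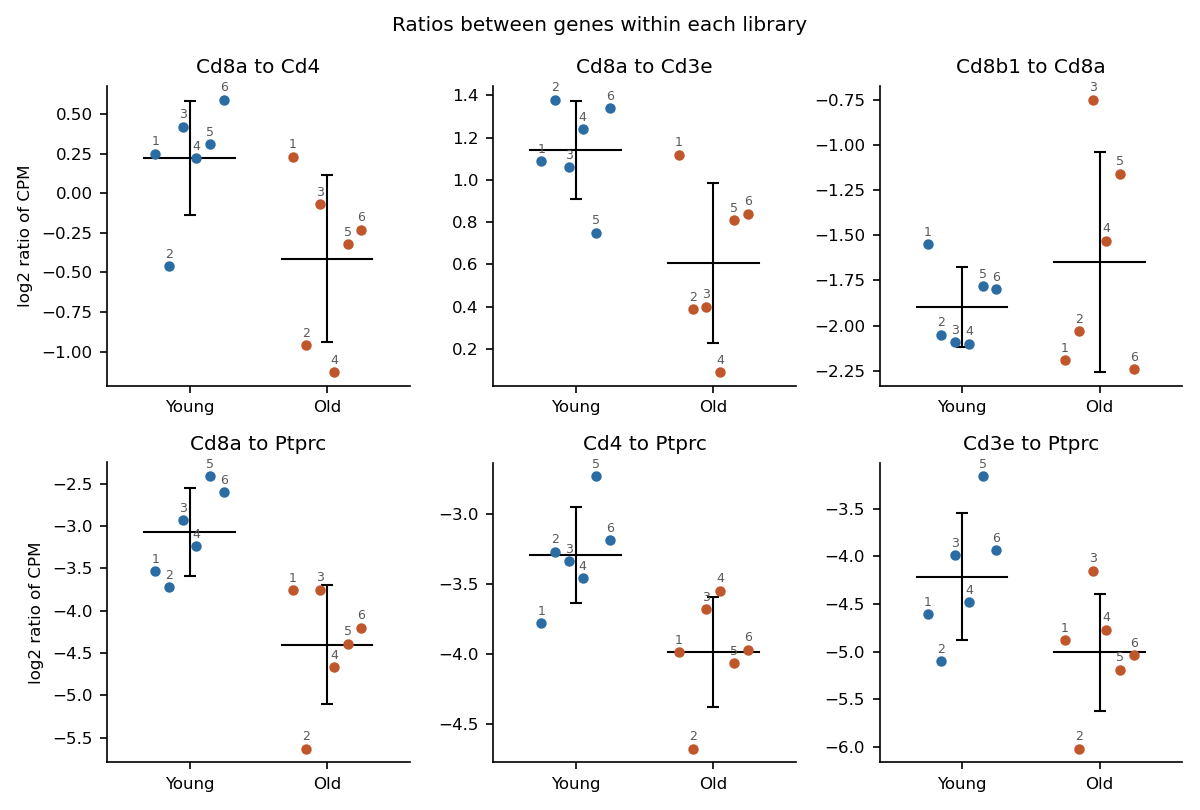
Log2 ratio of CPM, with a prior count of 2, between pairs of genes within each of the 6 Young tumor (blue) and 6 Old tumor (orange) libraries. Numbers are replicate numbers, the line is the mean and the bar 1 SD. Only the panel of Cd8a to Ptprc shows no overlap, and Young tumor 2 is the single young library below 0 for Cd8a to Cd4.

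Cells other than conventional T cells can carry some of these transcripts, and their markers were measured alongside. Conventional type 1 dendritic cells of the mouse express Cd8a without Cd8b1 in lymphoid organs. Of their 7 markers, edgeR called 0, with 1 at an unadjusted p under 0.05, and 6 had a log2 fold change below 0, with a median of -0.27. For these and the marker lists that follow, the shares over all tested genes are 2.26% called, 21.1% at an unadjusted p under 0.05 and 45.8% below 0. The defining markers were present in every library. Xcr1 ranged from 0.921 to 4.07 CPM in young and 0.417 to 2.89 CPM in old tumors (log2 fold change -0.83, edgeR adjusted p = 0.339), and Clec9a from 2.87 to 5.72 and from 1.44 to 6.16 CPM (-0.43, SE 0.32, edgeR adjusted p = 0.47). Itgae, which encodes CD103 and is carried by these dendritic cells and by tissue-resident CD8 T cells alike, stood at -1.01 on the log2 scale (SE 0.30), with an edgeR adjusted p of 0.0856, and DESeq2 called it (adjusted p = 0.0152). The summed level of the 7 was 273 to 376 CPM in young and 274 to 367 CPM in old tumors, most of it from Cadm1, an adhesion gene that epithelia also express. The part of dendritic cells in the Cd8a level was not tested.

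Natural killer cells share Cd247 and several signalling genes. Of 8 markers 5 passed the filter and edgeR and DESeq2 called 0, with 2 at an unadjusted edgeR p under 0.05, Klre1 and Klri2, which limma-voom called lower (adjusted p = 0.0433 and 0.0186). The log2 fold change was below 0 for 4 of the 5, with a median of -0.13. Eomes stood at -0.05 (SE 0.17) and Klrk1 at 0.34 (SE 0.35). Ncr1, which defines these cells, was at most 0.302 CPM in any library. The summed level of the 8 was 34.0 to 52.1 CPM in young and 27.9 to 57.4 CPM in old tumors, most of it from Tyrobp, which myeloid cells also express. Among 8 macrophage and monocyte markers, which bear on Cd4, edgeR, DESeq2 and limma-voom called 0 and edgeR gave 0 at an unadjusted p under 0.05. Their median log2 fold change was 0.14 with edgeR and -0.03 with limma-voom, with summed levels of 445 to 731 CPM in young and 402 to 1010 CPM in old tumors. Their part in the level of Cd4 was not tested. Of 6 regulatory T cell markers edgeR called 0, with 2 at an unadjusted p under 0.05 that point in opposite directions. Tnfrsf4 was at -0.95 (log2, SE 0.37, adjusted p = 0.165 with edgeR), and limma-voom called it (adjusted p = 0.0459), while Tnfrsf18 was at 0.77 (log2, SE 0.31, adjusted p = 0.176 with edgeR). Of the 6 log2 fold changes 5 were below 0, and the median was -0.57. Foxp3 stood at -0.8 (SE 0.63, edgeR adjusted p = 0.492) and Ctla4 at -0.97 (SE 0.66, edgeR adjusted p = 0.42). The sums were 17.7 to 29.6 CPM in young and 21.9 to 30.2 CPM in old tumors. Ikzf2 had the highest mean level of the 6, at 16.4 CPM in young and 15.5 CPM in old tumors. Foxp3 was at most 1.46 CPM in any library. Of 6 epithelial markers the 3 tools called 0, edgeR had 0 at an unadjusted p under 0.05, and the median was -0.11.

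Gamma delta T cells use the same CD3 subunits with another receptor. Of 5 constant genes of that receptor, Trgc1 and Trgc2 passed the filter. Trgc1 ranged from 0.854 to 2.13 CPM in young and from 0.561 to 2.58 CPM in old tumors (log2 fold change -0.15, SE 0.32, edgeR adjusted p = 0.831), and Trgc2 from 0.307 to 2.73 and from 0.371 to 2.16 CPM (-0.22, SE 0.50, edgeR adjusted p = 0.84). Trdc, the delta constant gene, was between 0 and 0.413 CPM in all libraries but Old tumor 1, where it reached 1.5 CPM. Trgc genes resemble one another, so reads may be shared between them.

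The machinery that acts just inside the receptor had no gene past the threshold with edgeR. Of 27 such genes 25 passed the filter, edgeR called 0 in either direction, and 17 had a log2 fold change below 0, with a median of -0.11. Over all tested genes 2.26% were called, 45.8% were below 0 and the median was 0.03. At an unadjusted edgeR p under 0.05, which 21.1% of all genes reached, there was 1, Skap1, an adaptor that links the receptor to integrin adhesion, at -0.96 (SE 0.31, edgeR adjusted p = 0.098). DESeq2 called 0 of the list, and limma-voom called Skap1 (adjusted p = 0.029). The next by p were the costimulatory receptor gene Icos at -0.84 (SE 0.45, adjusted 0.305), the phosphatase gene Ptpn22, which dampens receptor signals, at -0.39 (SE 0.21, adjusted 0.311), and Zap70, the kinase that binds the zeta chain, at -0.60 (SE 0.35, adjusted 0.348). The difference between this list and the receptor genes was not tested, and several of its members, such as Fyn and Plcg1, are expressed in many cell types. The summed level of the list was 228 to 297 CPM in young and 220 to 328 CPM in old tumors.

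Regulators and a surface marker of the T cell lineage were tested as a list of 9 genes. edgeR called 0, and the median log2 fold change was -0.08. An unadjusted p under 0.05 was reached by 2 of 9, a share near the 21.1% of all genes. Those were Gata3, a factor of T helper cells that epithelia also use, at -0.55 (log2, SE 0.18, adjusted p = 0.11 with edgeR), and Runx3, a factor of the CD8 lineage, at -0.50 (SE 0.18, edgeR adjusted p = 0.135). Both DESeq2 and limma-voom called Gata3 lower (adjusted p = 0.0466 and 0.045). Zbtb7b, which directs cells to the CD4 lineage, stood at 0.08 (SE 0.08, edgeR adjusted p = 0.596), at 56.8 to 82.4 CPM. Tcf7, Thy1 and Ets1 were at no less than 30.7, 33.3 and 50.3 CPM in any library, whereas Cd4 reached at most 6.71 CPM. The cell types behind the levels of Zbtb7b, Tcf7, Thy1 and Ets1 were not tested. Satb1, a chromatin organiser of thymocytes, stood at 0.37 (SE 0.39, edgeR adjusted p = 0.617).

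Over all 12 libraries, 8 genes were correlated with Cd3e, and for Trbc1 no correlation was detected. Pearson's r with Cd3e on log2 CPM was 0.94 for Cd3g and Cd8b1, 0.93 for Cd8a, 0.92 for Trbc2, 0.91 for Cd4, 0.86 for Trac, 0.80 for Cd3d and 0.68 for Cd247. Spearman's rho was 0.93, 0.93, 0.92, 0.85, 0.88, 0.85, 0.82 and 0.62 in the same order. After adjustment over 9 relations, the permutation p of r was at most 0.0202 and that of rho at most 0.0397 for these 8 genes. For Trbc1, r was 0.23 (permutation p = 0.474) and rho was 0.31 (permutation p = 0.331). Without Old tumor 2 and Young tumor 3, the libraries farthest from the median of Cd3e, r was 0.61 to 0.93 for the 8 genes and 0.40 for Trbc1.

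The relations were also computed within each age of 6 libraries. Among old libraries r was 0.75 to 0.96 for the 8 genes, and among young ones 0.44 to 0.97, with Cd247 the lowest at 0.44 (exact permutation p = 0.421). The exact permutation p among young libraries was above 0.05 for Cd3d (0.182), Trbc2 (0.0708), Trac (0.0639) and Cd4 (0.0556) as well. For Cd8a r was 0.95 in young (exact permutation p = 0.00556) and 0.93 in old tumors (exact permutation p = 0.0222). For Trbc1 it was -0.67 in young and 0.56 in old tumors (exact permutation p = 0.144 and 0.282). The part of the split of shared reads between Trbc1 and Trbc2 in the steadiness of Trbc1 and in its low correlation was not tested.

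**Figure D5:**
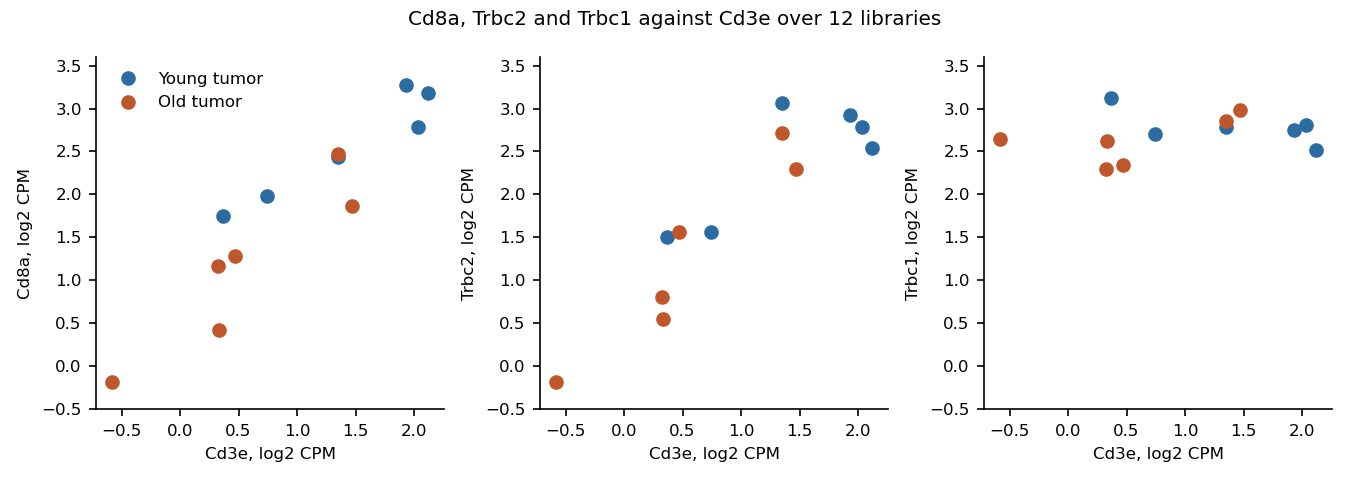
Log2 CPM of Cd8a, Trbc2 and Trbc1 against log2 CPM of Cd3e; each point is 1 library, blue for Young tumor and orange for Old tumor. Cd8a and Trbc2 follow Cd3e (r = 0.93 and 0.92), and Trbc1 does not (r = 0.23).

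Beyond the 10, the genes with the most similar pattern were sought among 12834 named genes with a mean of at least 1 CPM, after the mean of each age was removed. The measure was Pearson's r with the mean log2 CPM of the 10 genes over 12 libraries, given as a description without a test. The closest were Irgm2, B2m and Igtp at 0.95. B2m encodes the light chain of MHC class I, and Irgm2 and Igtp encode interferon-inducible GTPases. Tap1, the transporter that feeds peptides to MHC class I, Psmb9, an immunoproteasome subunit, and Sh2d2a, an adaptor of T cells, followed at 0.94. Zbp1, a nucleic acid sensor, Nlrc5, a transactivator of MHC class I genes, Il2rb, a chain of the receptors for interleukins 2 and 15, and Lck, the kinase bound to CD4 and CD8, stood at 0.93. These values are as high as those of most of the 10 genes with their own mean, which were 0.91 to 0.95 for 7 of them, 0.84 for Cd3d, 0.78 for Cd247 and 0.31 for Trbc1. Between the ages, B2m differed by -0.93 (log2, SE 0.28, adjusted p = 0.086 with edgeR), and edgeR called none of these 10 genes.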

How the data were processed

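RNA from tumor pieces (PureLink kit, RNA integrity number above 8) was poly(A) selected and made into strand-marked NEBNext Ultra Directional libraries, per the labels' protocols. Cutadapt 2.3, STAR 2.7.0d, RSEM 1.3.1 and mm10 are named in the submitters' processing notes; for the annotation and strand setting, the sources used here name nothing. Tables of expected counts and of TPM, each with 47643 genes and 12 libraries, were what the authors deposited. Expected counts (exactly whole, entries at 0 included, for 86.0% to 88.2% of a library's deposited entries) were rounded before testing.

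Genes were tested with edgeR 4.0.16 under R 4.3.3 (TMM scaling, filterByExpr, quasi-likelihood F test, two-sided, Benjamini-Hochberg over 16013 genes, 6 Old tumor against 6 Young tumor libraries, no block). The SE is the fold change over the square root of F. Log2 CPM, and with it each log2 ratio of CPM, used a prior count of 2. For ratios, all 924 splits were enumerated in an exact two-sided permutation test (scipy 1.17.1), adjusted over 10 ratios. Correlations were tested with 100000 permutations. The 10 genes, the marker lists and the tests were chosen with earlier results of these data known. Besides the 10 genes, the text names the 4 genes with the smallest p in the signalling and the lineage list, the tested gamma delta constant genes, markers that bear on a result and the 10 genes of most similar pattern. The Tcrg-C names of the table were matched to Trgc symbols through RefSeq synonyms. Coordinates and Trbc sequences came from GENCODE transcripts of GRCm38, the assembly of mm10, and promoters from RefSeq, which held 5 of the 10 genes.

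Same-numbered libraries of the 2 ages were not linked by the labels. DESeq2 1.42.0, limma 3.58.1 (voom and log2 TPM), other scalings, filters, a length correction, a replicate block and omitted libraries were the alternatives. The scripts were tested on simulated data.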

Additional observations from a re-analysis of the deposited data

Results flagged for a closer look

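Of 50 groups of 6 libraries, 3 had a single library standing apart by Dixon's criterion, which chance alone gives in about 1 of 20 groups. The log2 ratio of Cd8a to Cd4 was -0.456 in Young tumor 2, where the nearest other young library had 0.225. That library also stood apart on the third principal component of all genes, and the age difference of the ratio was -0.63 with it and -0.77 without it. Trdc, the delta constant gene, was 1.5 CPM in Old tumor 1, where the next old library had 0.413 CPM. Old tumor 1 also had the highest Ptprc level, at 75.0 CPM, and the highest sum of B cell markers, at 15.9 CPM. Trgc1 was 0.854 CPM in Young tumor 1, against 1.73 CPM in the nearest young library.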

How the results depend on the processing

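The log2 fold change of each of the 10 genes stayed below 0 under every alternative run, and the sign of each ratio held wherever it was not 0. The number of the 10 called was 0 in 22 of 26 alternatives, among them the other scalings, both filters, both TPM fits, the length correction, a threshold of 0.1 and the sum of Trbc1 and Trbc2, which was added after the data were seen. It was 2 with DESeq2, 1 with limma-voom and 1 without both Old tumor 1 and Old tumor 5, and ran from 0 to 3 when single libraries were left out. The Cd8a to Cd4 difference ran from -0.77 to -0.49 when single libraries were left out. Log2(TPM + 1) gave the smallest difference of Cd4, -0.26, and moved the median of all genes from 0.03 to 0.13; log2(TPM + 0.1) moved it to 0.15. The causes of these shifts were not tested. With a replicate block, 0 of the 10 were called (smallest edgeR adjusted p = 0.0699) and the Cd8a to Cd4 ratio kept a difference of -0.63 (adjusted exact permutation p = 0.0625). In the paired test, whose smallest p is 0.03125, the ratios of Cd8a and Cd4 to Ptprc lost their calls at an adjusted exact permutation p of 0.0625. Deviations of same-numbered libraries correlated at -0.23 to 0.14, and 2 of 6 correlated best with their own number, so the numbers were not taken as pairs. Depth limits Cd8b1 and Cd247 most, with mean counts of 27.8 and 31.2 per library and counting errors of 19.0% and 17.9%.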
